A study of Mus musculus with 18 samples.

Results

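Keratins are the filament proteins of epithelial cells, and 49 protein-coding keratin genes were followed here through whisker pad tissue after facial nerve lesion. The genes were taken by name, as symbols that begin with Krt and a number, and Krt6a, Krt6b, Krt16, and Krt17 were left out. They are 49 of 35150 genes in the data and 49 of 21993 protein-coding genes. By their numbers, 7 genes form the inner root sheath group (Krt25 to Krt28 and Krt71 to Krt73). The hair shaft group holds 14 (Krt31 to Krt36, Krt39, Krt40, Krt81 to Krt84, and Krt86). The rest were grouped by a list, 14 as epidermal and 14 as keratins of simple, oral, or other epithelia. The epidermal list also holds keratins made in the follicle, such as Krt15, Krt75, and Krt79, so that its counts and medians are not of epidermis alone. Krt74 is a transcribed pseudogene in the annotation and was not taken. The annotation holds no protein-coding gene named Krt85, so that Krt85 enters no count or median here.

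The samples were biopsy punches of skin with muscle from the rostral whisker pad of 9 mice, whose strain and genotype were not given in the sources used here. On the right, denervated side, facial nerve branches (superior marginal and buccal) were cut behind the pad. The left side was the sham control, with the skin opened and closed over an uncut nerve, and since the right was lesioned in all mice, left-right differences and the lesion cannot be told apart. Both sides were collected at day 1, 3, or 7 after surgery from 3 mice each, which gives 18 libraries in 6 groups of 3, and all mice had skin surgery on both sides. The values are TPM, transcript levels per transcript length and depth, which the authors normalized between samples and which were summed over the transcripts of a gene.

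Keratins work as obligate pairs of an acidic type I and a basic type II protein. Dividing basal cells of the epidermis make Krt5 with Krt14, and cells that leave the basal layer switch to Krt1 with Krt10. In a growing hair follicle, matrix cells at the base give rise to the inner root sheath, a sleeve that guides the hair, and to the hair shaft, whose cuticle and cortex are built of sulfur-rich hair keratins. Whisker pad skin holds large vibrissa follicles beside small pelage follicles.

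In the mouse genome the members lie in 2 clusters, 25 genes within 1037 kb of chromosome 11 and 24 genes within 685 kb of chromosome 15. Of the 49 members, 36 matched a RefSeq promoter (build GRCm38). For Krt14 and Krt7 the RefSeq start lies 1518 and 1360 bases from the annotated gene start, so that their windows lie inside the gene. The letters TATAAA, the core of a TATA box, were looked for on the strand of the gene in the last 100 bases before the start. They were present in 6 of 7 inner root sheath genes (85.7%), 5 of 9 hair shaft genes (55.6%), and 1 of 11 epidermal genes (9.09%), beside 4.19% of all 27025 promoters. On both strands of the full 300 bases, the shares were 100% of inner root sheath, 66.7% of hair shaft, and 9.09% of epidermal genes, beside 14.1% of all promoters. A LEF/TCF site (CTTTGA), searched on both strands of the 300 bases, was present in 5 of 9 hair shaft, 1 of 7 inner root sheath, and 1 of 11 epidermal genes, beside 16.2% of all promoters. An AP-1 site (TGACTCA) was present in 0 of 36 members and in 5.2% of all promoters, and an AP-2 site (GCCNNNGGC) in 7 of 36 members and 16.5% of all promoters. No motif searched holds another. These are matches of letters in a window and not sites of binding. Only the exact letters TATAAA were counted, so that a gene without a match may still hold a like stretch. Such stretches are gataaaag in Krt5, and tatataag in Krt2 and in Krt36 of the hair shaft. The last 100 bases before the start are shown for some of the members named below, most of them with a match, 5′ to 3′, with TATAAA in capitals. Krt14, Krt18, Krt79, and Krt84 are also named below, had no match, and are not shown.
Krt34 chr11:100041555-100041654 (minus strand): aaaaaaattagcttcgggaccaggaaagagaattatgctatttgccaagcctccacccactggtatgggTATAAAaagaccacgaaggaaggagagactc
Krt31 chr11:100050552-100050651 (minus strand): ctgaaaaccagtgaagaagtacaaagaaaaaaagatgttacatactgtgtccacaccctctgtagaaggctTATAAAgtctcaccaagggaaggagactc
Krt33b chr11:100029869-100029968 (minus strand): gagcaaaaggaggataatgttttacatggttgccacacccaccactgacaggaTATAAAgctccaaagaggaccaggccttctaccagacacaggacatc
Krt25 chr11:99322952-99323051 (minus strand): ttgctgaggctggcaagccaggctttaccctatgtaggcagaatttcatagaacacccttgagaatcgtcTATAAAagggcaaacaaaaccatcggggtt
Krt28 chr11:99374904-99375003 (minus strand): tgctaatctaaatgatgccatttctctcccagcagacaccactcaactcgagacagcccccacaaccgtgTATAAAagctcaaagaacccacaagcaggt
Krt71 chr15:101743098-101743197 (minus strand): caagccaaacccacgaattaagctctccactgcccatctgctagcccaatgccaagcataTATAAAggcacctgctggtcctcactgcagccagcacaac
Krt73 chr15:101802361-101802460 (minus strand): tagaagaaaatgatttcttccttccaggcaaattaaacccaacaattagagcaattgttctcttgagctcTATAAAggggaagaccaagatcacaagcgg
Krt10 chr11:99389365-99389464 (minus strand): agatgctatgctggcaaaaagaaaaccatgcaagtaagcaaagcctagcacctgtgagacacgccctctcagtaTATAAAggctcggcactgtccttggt
Krt5 chr15:101712906-101713005 (minus strand): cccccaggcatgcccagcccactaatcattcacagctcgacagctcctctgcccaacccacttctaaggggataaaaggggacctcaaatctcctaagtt
Krt10 is the single epidermal gene with a match. Krt5 is shown as a member without one.

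The estimated depth was 10300000 to 32200000 reads per library, so that 1 TPM stands for 8.82 to 31.4 reads per kb of transcript, and this covers counting error only. Of the 49 members, 40 had at least 1 TPM in all 18 libraries, and Krt9 of footpad skin and Krt88 reached it in none. The markers of the tissue varied between libraries. The 10 skeletal muscle markers summed to 4215 to 22643 TPM at day 1, 12741 to 19873 TPM at day 3, and 23499 to 28003 TPM at day 7. The 8 general epithelial markers summed to 712 to 960.2 TPM, 562 to 922 TPM, and 509.8 to 599.6 TPM at the same days. Krt13, a keratin of the oral lining, reached 100 TPM in 5 of the 18 libraries, which are called rich in oral keratins here. In bulk tissue, fewer cells of a type and less RNA per cell cannot be told apart.

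Epidermal keratins were the most abundant members. Their sum was 6201 to 11576 TPM, or 0.601% to 1.23% of a library's total, beside 629 to 7698 TPM for the hair shaft and 431 to 2921 TPM for the inner root sheath. Krt5 led with a median of 2129 TPM and a range of 1656 to 3392 TPM. Its partner Krt14 ran from 1153 to 3182 TPM, and the suprabasal Krt10 from 531 to 2533 TPM. The lowest and highest libraries differed by 2.05-fold for Krt5 and by 4.77-fold for Krt10. The same fold was 8.58 for Krt71 of the inner root sheath, 16.2 for Krt83 and 34.1 for Krt33b of the hair cortex, and 62.6 for Krt2, an upper epidermal keratin.

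Krt15, made by basal cells and by stem cells of the follicle bulge, ran from 939 to 1957 TPM. It was lower on the denervated side in 8 of 9 mice. In limma without pairing, the log2 difference over all days was -0.20 (SE 0.11) with an adjusted p of 0.489. The difference between its sides had an SD of 0.115, beside 0.264 between libraries of a group, so that this SE is too wide for paired sides. With the mouse as a block, 0 of 44 members passed over all days. Krt75 of the companion layer, between the outer and inner root sheaths, ran from 44.6 to 124 TPM, and Krt80 from 55.4 to 163 TPM. In the hair shaft Krt81 of the cortex ran from 68.4 to 1027 TPM, Krt35 and Krt32, which begin in the matrix and cuticle, from 60.5 to 466 TPM and from 28.3 to 229.9 TPM, and Krt82 of the cuticle from 2.904 to 56.03 TPM. The keratins of simple epithelia were low, with Krt7 at 1.03 to 2.77 TPM and Krt19 at 2.24 to 7.98 TPM.

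Hair keratins varied much more between mice of a group than most genes did. The SD of log2(TPM + 0.5) within a group had a median of 0.87 over 14 hair shaft genes, 0.71 over 7 inner root sheath genes, and 0.42 over 13 epidermal genes, beside 0.22 over all 14757 genes tested. The difference between the sides of a mouse had an SD of 1.18, 1.08, and 0.57 in these groups and 0.26 over all genes. The leading member of each group was then compared between the sides over 9 mice with exact two-sided permutation tests, 3 in all. Pearson's r was 0.65 for Krt5 (p = 0.0616, adjusted p = 0.185), -0.29 for Krt71 (p = 0.452, adjusted p = 0.452), and 0.32 for Krt83 (p = 0.409, adjusted p = 0.452). Spearman's rho was 0.43, -0.18, and 0.60 (exact permutation p = 0.250, 0.644, and 0.0968, adjusted 0.375, 0.644, and 0.290). Without the 2 mice farthest from the median of the sham side, r was 0.15, 0.01, and 0.30, and with the mean of each day subtracted it was 0.48, -0.20, and 0.04. None of the 3 relations passed on the deposited scale, and r for Krt5 fell without those 2 mice. The result for Krt5 depends on the scaling, with r = 0.87 when libraries were given an equal sum, where it passed (adjusted exact permutation p = 0.000967), and r = 0.11 on the epithelial scale (adjusted exact permutation p = 0.773).

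At day 1, denervated and sham sides overlapped for all 45 members that could be tested, while 5.61% of 14776 genes were higher and 3.95% lower on the denervated side without overlap. With limma, 0 of 45 members had an adjusted p under 0.05 (Benjamini-Hochberg over all genes), beside 0% of genes. At an unadjusted p under 0.05 there were 1 member, Krt79, and 4.29% of genes. Krt83, a type II keratin of the cortex, was at 283, 467, and 115 TPM in sham and 1200.1, 209, and 261 TPM in denervated libraries of mice 1, 2, and 3. Krt33b, a type I keratin of the cortex, was at 221, 365, and 54.8 TPM and 1218, 107, and 115 TPM. In both genes the denervated side of mouse 1 stood above the other 5 libraries, and the rest overlapped. Krt34 was at 212, 144, and 101 TPM in sham and 897, 153, and 193 TPM in denervated libraries, with the same mouse on top. The inner root sheath genes Krt71, Krt25, and Krt27 were close together in sham libraries, at 316, 367, and 338 TPM, 286, 312, and 327 TPM, and 132, 196, and 165 TPM. Their denervated values were 829, 248.5, and 398 TPM, 652, 226, and 375 TPM, and 362, 152, and 198 TPM, again highest in mouse 1. In the basal layer, Krt5 was at 3392, 2040.4, and 2174 TPM in sham and 2573, 2136, and 2036 TPM in denervated libraries, and above it Krt10 was at 849, 1244, and 1509.6 TPM and 1213, 1362, and 1286 TPM. The 7 members of the inner root sheath had a median log2 difference of 0.45 and the 14 of the hair shaft one of 0.55, beside 0.01 over all genes. Without the 3 day 1 libraries rich in oral keratins, which leaves only mouse 1 on the denervated side, these medians were 1.13 and 1.63. Both rest on mouse 1. Without it they were 0.15 and 0.05, with 21 members higher and 24 lower in place of 34 and 11, and without mouse 2 they were 0.85 and 1.37. The most positive differences of the groups were Krt2 at 1.78 (SE 1.04), Krt72 of the inner root sheath at 0.74 (SE 0.62), and Krt86 of the hair cortex at 1.05 (SE 0.74) on the log2 scale. Without mouse 1 those of Krt72 and Krt86 were 0.15 and 0.27. The most negative were Krt77 at -1.05 (SE 0.94) and Krt36 at -0.01 (SE 0.45), and each of these 5 genes had an adjusted p of 0.999 in limma. Krt2 was at 23.2, 23.4, and 16.6 TPM in sham and 12.5, 112, and 266 TPM in denervated libraries, and its 2 highest values of that day are in libraries rich in oral keratins. Without those libraries its log2 difference was -0.87, and that of Krt77 was 0.95.

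At day 3 most hair keratins had lower values on the denervated side of all mice, and no single member passed the adjusted test. The denervated library was below the sham library of the same mouse in all 3 mice for 13 of 14 hair shaft genes, 6 of 7 inner root sheath genes, and 8 of 13 epidermal genes tested, beside 21.9% of 14943 genes. All 3 denervated values were below all 3 sham values for 8 hair shaft, 4 inner root sheath, and 3 epidermal genes, beside 9.82% of all genes. The genes of a group in these counts are not separate observations. Over the 18 libraries, Pearson's r between pairs had a median of 0.71 in the hair shaft and 0.72 in the inner root sheath. The median log2 difference was -0.999 in the hair shaft, -1.09 in the inner root sheath, and -0.34 in epidermal genes, beside -0.01 over all genes. Without mouse 2 these were -0.68, -0.43, and -0.44, and without mouse 3 they were -1.21, -1.39, and -0.23. With limma, 0 of 44 members had an adjusted p under 0.05, beside 1.45% of all genes, and 18 members were lower at an unadjusted p under 0.05, beside 6.4% of all genes.

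Among hair shaft genes, Krt34 of the cortex was at 741, 887, and 482 TPM in sham and 679, 380.02, and 197 TPM in denervated libraries, a log2 difference of -0.88 (SE 0.46) with an adjusted p of 0.446. Krt83 was at 685, 1350.03, and 503 TPM against 372, 413, and 347 TPM, or -1.04 (SE 0.35) on the log2 scale with an adjusted p of 0.239. Krt33b was at 694, 1469, and 426 TPM and 487, 358, and 260.2 TPM. The sham values of Krt83 all lie above its denervated values, while those of Krt34 and Krt33b overlap in a single pair of libraries. The most negative difference was in Krt84, a low-level type II hair keratin also known from tongue and nail, at 35.6, 46.99, and 15.2 TPM in sham and 3.13, 12.1, and 9.23 TPM in denervated libraries. This is -1.97 (SE 0.58) on the log2 scale, with an adjusted p of 0.192. Krt40, the exception among hair shaft genes, was at 27.3, 17.997, and 13.5 TPM and 20.03, 7.86, and 15.4 TPM.

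Inner root sheath genes had the same order of sides. Krt71, whose protein is a main filament of the sheath, was at 847, 1178, and 589.5 TPM in sham and 552, 146, and 513 TPM in denervated libraries, the most negative difference of its group at -1.27 (SE 0.54) on the log2 scale with an adjusted p of 0.351. Its type I partner Krt25 was at 615, 823, and 442 TPM and 406, 114, and 394 TPM. Mouse 2 had the highest sham and the lowest denervated value in both genes, and without mouse 2 the difference for Krt71 was -0.41. Krt27 was at 422, 568, and 291 TPM and 227, 84.5, and 298 TPM, with the denervated side of mouse 3 slightly above its sham side. Krt73 was at 108, 129, and 106 TPM and 76.4, 34.2, and 62.7 TPM, with a difference of -1.05 (SE 0.29) and an adjusted p of 0.172.

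Epidermal keratins differed less. Krt5 was at 2023, 2859, and 2792 TPM in sham and 2409, 2832, and 2122 TPM in denervated libraries and overlapped, and Krt10 was at 1215, 1460.2, and 2045 TPM and 1113, 1255, and 1282 TPM. The ends of this group were Krt24 at 0.01 (SE 0.17) and Krt2 at -0.90 (SE 1.16), with adjusted p of 0.986 and 0.793.

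General epithelial markers had the same direction at day 3. All 8 markers had a negative log2 difference, with a median of -0.30, and their sum was 668 to 922 TPM in sham and 562 to 632 TPM in denervated libraries. Rescaling every library to epithelial genes put the median of all genes at 0.26, of the hair shaft at -0.70, of the inner root sheath at -0.79, and of epidermal genes at -0.04, with 33 of 44 members lower in place of 39. On that scale 1276 genes were called higher and 66 lower, in place of 151 and 66, and Krt18 of simple epithelia was called among the higher ones (log2 difference 1.42, adjusted p = 0.0229 in limma). Without the day 3 sham library rich in oral keratins, the medians were -1.16, -1.32, and -0.20. Proliferation markers also had a negative median, -0.33 over 8 genes, and 0 of 8 passed the test. The part of these markers in the keratin differences was not tested.

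**Figure D1:**
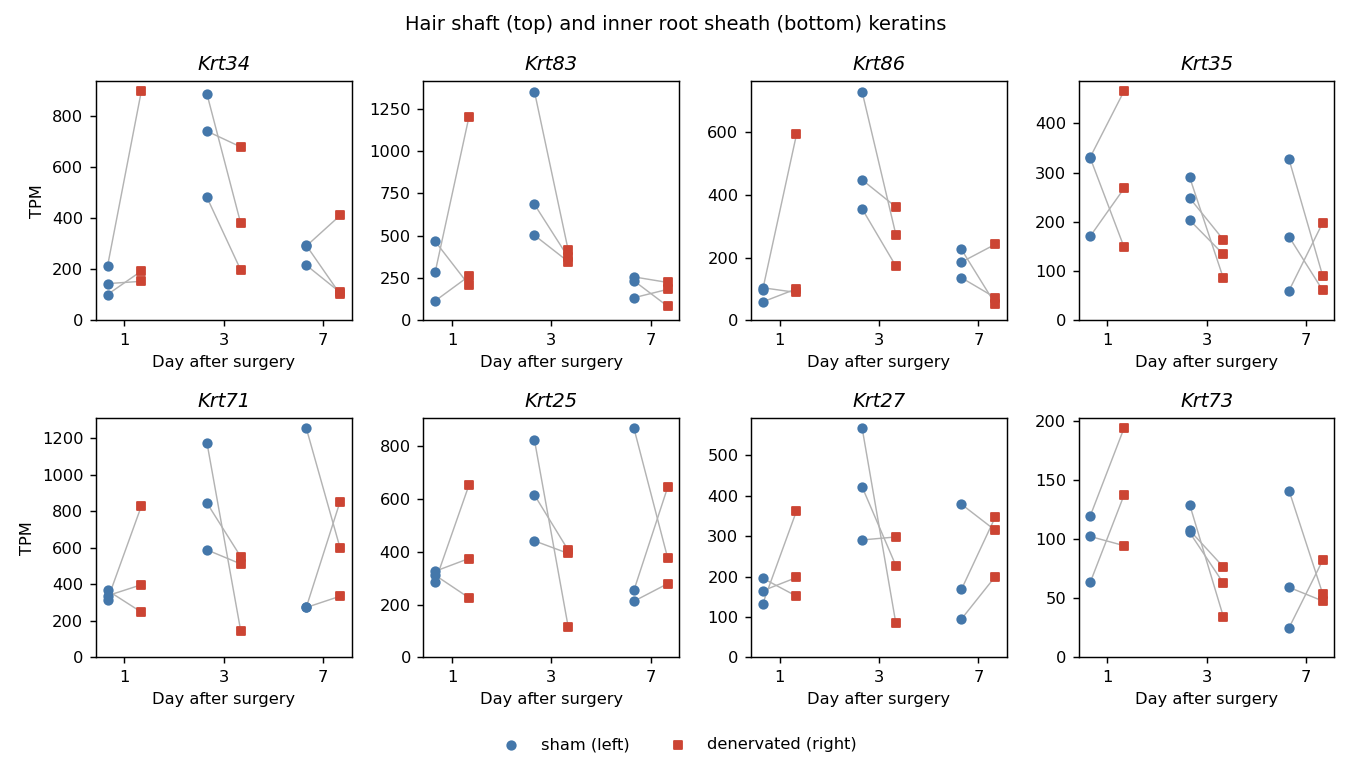
TPM of 4 hair shaft genes (top) and 4 inner root sheath genes (bottom) in each library by day, with sham as blue circles, denervated as red squares, and a grey line for each mouse. At day 3 the Krt83 values are 685, 1350.03, and 503 TPM in sham and 372, 413, and 347 TPM in denervated libraries and do not overlap.

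At day 7 the order of the sides in hair keratins was mixed, and Krt1, Krt10, Krt23, Krt77, Krt78, and Krt80 had higher values on the denervated side of all 3 mice. No member passed the test without pairing (0 of 44, beside 1.53% of 15081 genes), and 5 had an unadjusted p under 0.05, all higher, beside 7.42% of genes that were higher at that threshold. All 3 mice had a higher denervated value in 6 of 13 epidermal genes, 1 of 7 inner root sheath genes, and 1 of 14 hair shaft genes, beside 24.9% of all genes. Krt10 was at 1182, 531, and 903 TPM in sham and 1472, 1085, and 2533 TPM in denervated libraries, a difference of 0.95 (SE 0.39) on the log2 scale with an adjusted p of 0.396. Its partner Krt1 was at 666, 308, and 455 TPM and 954, 537, and 1357 TPM, or 0.97 (SE 0.40) with an adjusted p of 0.396. Both genes were higher in every mouse, and the groups overlap, with mouse 2 low on both sides. Krt23 was at 27.96, 18.4, and 37.9 TPM and 46.4, 32.05, and 81.1 TPM. Its difference of 0.87 (SE 0.38) had an adjusted p of 0.432 without pairing and of 0.0324 with the mouse as a block, where it was the only member past the threshold.

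Basal keratins had another order. Krt5 was at 1861, 2101, and 2183 TPM in sham and 1795, 1939, and 1656 TPM in denervated libraries, the most negative difference of the epidermal group at -0.19 (SE 0.13) on the log2 scale with an adjusted p of 0.627. Among hair shaft genes Krt83 was at 134, 234, and 257 TPM in sham and 183, 83.5, and 224 TPM in denervated libraries, Krt33b at 74.2, 234, and 245 TPM and 194, 43.04, and 336 TPM, and Krt34 at 216, 294, and 291 TPM and 109.8, 103, and 411 TPM, and all 3 overlapped. Krt71 was at 275, 274, and 1256 TPM in sham and 854, 335, and 599.9 TPM in denervated libraries, with the sham side of mouse 3 highest. Krt25 was at 254, 213, and 869 TPM and 645, 279, and 377 TPM, and Krt27 at 168, 95.03, and 379 TPM and 347, 200.2, and 315 TPM, with the same mouse highest in sham. The median was 0.55 over epidermal genes, 0.25 in the inner root sheath, and -0.15 in the hair shaft, beside 0.04 over all genes. Without the sham library of mouse 2, which is rich in oral keratins, these were 0.48, -0.0046, and 0.0038. Leaving out each mouse in turn moved the medians to 0.20 to 0.80 in epidermal genes, -0.39 to 0.87 in the inner root sheath, and -0.73 to 0.26 in the hair shaft. The most positive differences of the 3 groups were Krt77 at 1.13 (SE 0.50), Krt27 at 0.62 (SE 0.49), and Krt84 at 1.36 (SE 0.44), with adjusted p of 0.432, 0.685, and 0.277. Krt84 was at 2.21, 1.18, and 4.002 TPM in sham and 11.2, 4.61, and 5.31 TPM in denervated libraries, so that its groups did not overlap and its order was the opposite of that at day 3. The most negative in hair groups were Krt39 at -0.93 (SE 0.52) and Krt28 at -0.18 (SE 0.61), with adjusted p of 0.543 and 0.935.

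**Figure D2:**
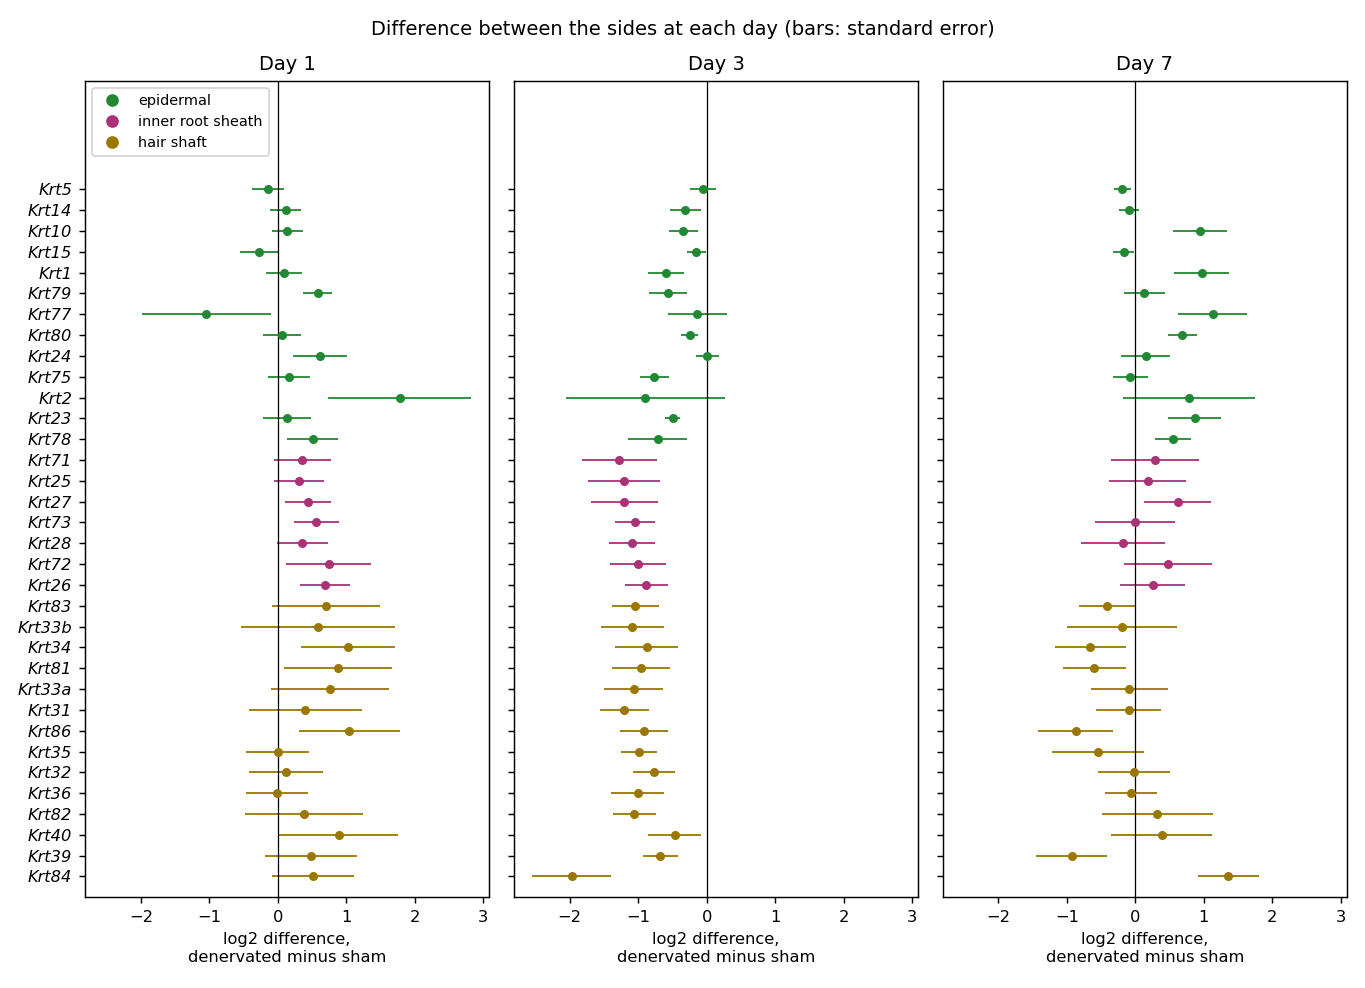
Log2 difference of denervated minus sham on log2(TPM + 0.5) with its standard error for the epidermal (green), inner root sheath (purple), and hair shaft (brown) members tested at days 1, 3, and 7, ordered by mean TPM within a group. At day 3 all hair shaft and inner root sheath members lie below 0 with group medians of -0.999 and -1.09, and at day 7 Krt10 and Krt1 lie at 0.95 and 0.97.

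The difference between the sides was then compared between days as an interaction in a fit of all 18 libraries. No member passed in any of 3 contrasts. From day 1 to day 3, 0 of 44 members and 0.122% of 14757 genes were called, and 7 members were lower at an unadjusted p under 0.05, beside 4.16% of genes. From day 3 to day 7, 0 of 44 members and 0% of genes were called, with 7 members higher at an unadjusted p under 0.05, beside 4.05% of genes. Krt84 had the largest of these, 3.33 (SE 0.88) on the log2 scale with an adjusted p of 0.632, followed by Krt27 at 1.81 (SE 0.72) and Krt1 at 1.56 (SE 0.50). Between days 1 and 7, 0 of 44 members were called, beside 0.163% of genes, and 0 had an unadjusted p under 0.05, beside 7.14% of genes.

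Over all days, 1 of 44 members differed between the sides, beside 3.1% of 14757 genes, and it was neither an epidermal nor a hair keratin. Krt18, the type I keratin of simple epithelia, was at 2.71, 1.34, and 2.03 TPM in sham and 2.71, 2.21, and 2.14 TPM in denervated libraries at day 1. Day 3 gave 1.68, 1.62, and 1.59 TPM in sham and 5.95, 3.29, and 4.09 TPM in denervated libraries, and day 7 gave 2.34, 1.72, and 1.99 TPM and 2.58, 3.402, and 3.49 TPM. It was higher in 8 of 9 mice, and the sides did not overlap at days 3 and 7. The log2 difference over all days was 0.64 (SE 0.15) with an adjusted p of 0.0294, which became 0.0621 with the mouse as a block, 0.077 on the epithelial scale, and 0.123 without the libraries rich in oral keratins. It was also lost without mouse 2 of day 1, without any mouse of day 3, and without mouse 2 or 3 of day 7, and the adjusted p over the 9 mice left out ran from 0.0102 to 0.117. For Krt8, its type II partner, the log2 difference was 0.01 (SE 0.16) with an adjusted p of 0.995, and it ran from 2.42 to 8.88 TPM. At day 3 the side difference of Krt18 was 1.18 (SE 0.22) with an adjusted p of 0.0697, and of Krt8 0.18 (SE 0.23).

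Changes over days were compared on each side by itself. These comparisons share samples with one another and with those between the sides. On the sham side the median sums of hair shaft and inner root sheath keratins were highest at day 3, at 4729 and 2169 TPM, beside 1962 and 1008 TPM at day 1 and 1866 and 762 TPM at day 7. From day 1 to day 3, 37 of 44 members were higher in sham libraries, with a median log2 difference of 1.56 in the hair shaft, 1.18 in the inner root sheath, and 0.40 in epidermal genes, beside 0.04 over all genes. Krt86 passed the test, 1 of 44 members beside 0.0818% of 14671 genes. Sham libraries gave 97.8, 104, and 59.03 TPM at day 1, 448, 729.8, and 356 TPM at day 3, and 136, 227, and 186 TPM at day 7, with all day 3 values above all others. Its rise from day 1 to day 3 was 2.53 (SE 0.32) on the log2 scale with an adjusted p of 0.0397, and the call was lost when any of the 9 mice was left out, with adjusted p from 0.0585 to 0.149. Krt34, which shares many 31-base stretches with its neighbours, was next at 2.22 (SE 0.31) and an adjusted p of 0.0622. Its sham libraries gave 212, 144, and 101 TPM at day 1 and 216, 294, and 291 TPM at day 7, all below the lowest sham value of day 3.

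From day 3 to day 7 the sham values of 41 of 44 members were lower, with 0 called beside 0.0136% of genes, and 19 lower at an unadjusted p under 0.05 beside 7.53% of genes. The median was -1.42 in the hair shaft, -0.93 in the inner root sheath, and -0.84 in epidermal genes, beside -0.03 over all genes. The inner root sheath median was -0.51 without mouse 1 of day 7 and -1.61 without mouse 3 of day 7. The epithelial markers had a median of -0.48 and the muscle markers of 0.74 in the same comparison, with 0 called in either list. On the epithelial scale the medians were -0.99, -0.49, and -0.41, beside 0.39 over all genes, and 35 of 44 members were lower. Without the libraries rich in oral keratins they were -1.78, -0.95, and -0.43. The part of these markers in the sham differences was not tested. Between days 1 and 7, 0 of 44 members were called on the sham side, beside 0.00682% of genes, and 6 had an unadjusted p under 0.05, beside 14.4% of genes. Denervated libraries gave other medians, and the interaction test given above called no member. From day 1 to day 3 the denervated median was -0.12 in the hair shaft, -0.45 in the inner root sheath, and -0.17 in epidermal genes, with 0 of 43 members called beside 11.6% of 14701 genes, and 6 members at an unadjusted p under 0.05 beside 29.1% of genes. The hair shaft median of that comparison was 0.59 without mouse 1 of day 1, and it ran from -1.72 to 0.59 over the alternative settings. From day 3 to day 7, 0 of 43 were called beside 0.211% of genes, and 3 had an unadjusted p under 0.05 beside 14% of genes. For comparison with the sham values above, Krt86 was at 593, 89.2, and 101 TPM at day 1, 362, 274, and 173 TPM at day 3, and 72.7, 52.4, and 243 TPM at day 7 in denervated libraries.

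On the denervated side 3 members were lower at day 7 than at day 1, 3 of 43 beside 21.3% of all genes called and 7.65% called lower, so that the share of members was near that of all genes. Krt14, the type I keratin of basal cells, was at 1969.8, 3182, and 2959 TPM at day 1, 1322, 1837, and 1471 TPM at day 3, and 1153, 1522, and 1347 TPM at day 7, a log2 difference of -0.99 (SE 0.22) with an adjusted p of 0.0152. Sham libraries gave 2571, 2166, and 2609 TPM, 1460.2, 1863, and 2496 TPM, and 1577, 1315, and 1387 TPM at these days, or -0.78 (SE 0.21) with an adjusted p of 0.21. Krt79, made by cells of the hair canal, was at 408, 577, and 625 TPM at day 1 and 259, 143, and 324 TPM at day 7 on the denervated side, or -1.20 (SE 0.29) with an adjusted p of 0.0227. Krt73 was at 194, 94.5, and 137 TPM and 82.3, 47.7, and 53.5 TPM, or -1.19 (SE 0.36) with an adjusted p of 0.047. Sham libraries at days 1 and 7 gave 417, 353, and 297 TPM and 234, 176, and 221 TPM for Krt79, and 119.7, 102, and 63.5 TPM and 25.1, 59.3, and 141 TPM for Krt73. At day 3 Krt79 was at 399, 290.1, and 615 TPM in sham and 313, 294, and 241 TPM in denervated libraries. On the denervated side, in each of the 3 genes all day 7 values lie below all day 1 values. The difference between the sides in this change was -0.21 (SE 0.30) for Krt14, -0.45 (SE 0.42) for Krt79, and -0.56 (SE 0.69) for Krt73, with adjusted p of 0.919, 0.872, and 0.903. The calls of Krt14 and Krt79 were lost without mouse 2 or 3 of day 1 or mouse 1 of day 7 (adjusted p up to 0.0642 and 0.0804 in limma). That of Krt73 was lost without mouse 1 or 3 of day 1, mouse 3 of day 3, or any mouse of day 7 (up to 0.118). Over the 11 other alternatives Krt14 and Krt79 passed in 9 each and Krt73 in 5, with its highest adjusted p, 0.0969, when all 18 samples were in one fit. The number of members called in either direction ran from 2 to 4 over these alternatives, and they were not always these 3 genes. On the epithelial scale 0 members were called lower and 2 higher.

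Epithelial and muscle markers also changed over these days. On the denervated side 5 of 8 epithelial markers fell between day 1 and day 7, and 7 of 10 muscle markers rose. Of all 14701 genes, 1125 were called lower and 2000 higher. The marker medians were -0.50 and 1.45 there, and -0.49 and 1.38 in sham libraries, where 0 were called in either list. The part of these markers in the keratin falls was not tested. For the denervated side on the epithelial scale, the median of all genes was 0.38, with 5635 genes called higher and 168 lower in place of 2000 and 1125. The members called were then Krt18 and Krt77, both higher (log2 difference 0.67 and 2.34, adjusted p = 0.0324 and 0.0458 in limma), and the differences of Krt14, Krt79, and Krt73 were -0.61, -0.83, and -0.81 with adjusted p of 0.106, 0.0622, and 0.0761. Without the libraries rich in oral keratins, which leaves a single denervated library at day 1, they were -0.56, -0.83, and -1.70 with adjusted p of 0.222, 0.295, and 0.0908. The members called there were Krt31 and Krt83, at -2.84 and -2.99 with adjusted p of 0.0309 and 0.0228. The lone library is then assumed to vary like the other groups. Of the keratins left out by name, Krt6a and Krt17 also fell in this comparison, by 1.03 and 0.79 on the log2 scale (adjusted p = 0.00459 and 0.0388 in limma).

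**Figure D3:**
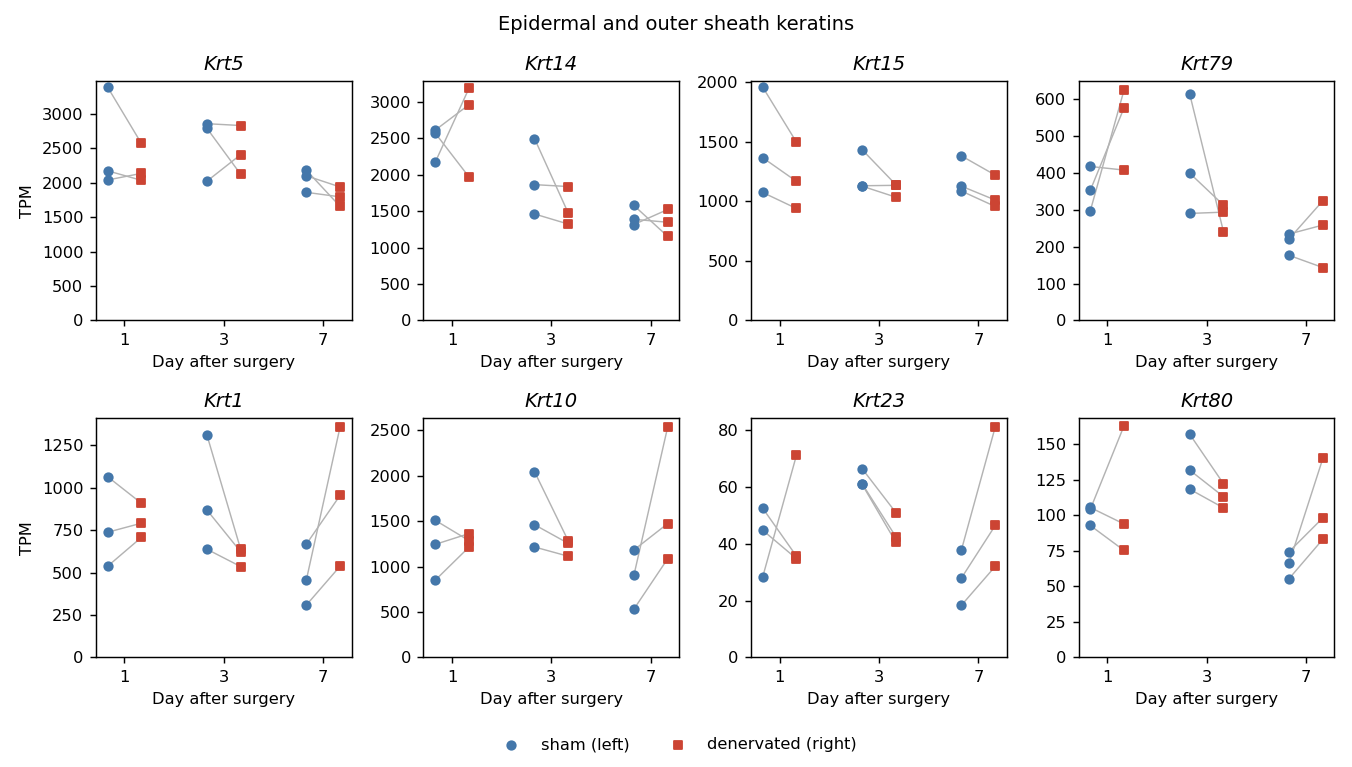
TPM of 8 epidermal members in each library by day, with sham as blue circles, denervated as red squares, and a grey line for each mouse. Krt14 goes from 1969.8, 3182, and 2959 TPM at day 1 to 1153, 1522, and 1347 TPM at day 7 on the denervated side, and Krt10 is at 1472, 1085, and 2533 TPM there at day 7, above the sham library of the same mouse in each case.

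Genes that act on keratins or beside them were counted in 3 lists. These held 15 transcription factors known from epidermis and follicles, and 12 genes of desmosomes and hemidesmosomes that hold keratin filaments. The last held 8 genes, called hardening genes here, which include transglutaminases of the cornified layer and are not specific to hair. Between the sides, 0 of 15, 0 of 12, and 0 of 8 passed at each of the 3 days. At day 3 the medians were -0.39, -0.29, and -0.86, and the lowest genes were Foxn1 at -0.93, Evpl at -0.75, and Tgm3 at -1.59 on the log2 scale. The highest of all 18 values of Evpl, 41.1 TPM, and of Tgm3, 106 TPM, are both in the day 3 sham library rich in oral keratins. Without it the medians were -0.27, -0.24, and -0.82, and Foxn1, Evpl, and Tgm3 were at -1.11, -0.47, and -0.77. With all libraries the most positive were Gata3 at 0.04, Itga6 at 0.11, and Tgm5 at -0.37. On the denervated side from day 1 to day 7, 7 of 15 factors fell and 0 rose, beside the 7.65% of all genes called lower. Msx2, a factor of the hair matrix, fell by 1.13 on the log2 scale (SE 0.32, adjusted p = 0.0381), Hoxc13, which acts on hair keratin genes, fell by 0.90 (adjusted p = 0.0477), and Lef1, the factor at the end of Wnt signalling, fell by 0.89 (adjusted p = 0.0476). The other 4 were Dlx3, Ovol1, Tfap2a, and Tfap2c. Of the anchors 3 of 12 fell, namely Pkp3, Evpl, and Itga6. Of the hardening genes 2 of 8 fell, Tgm3 by 2.09 (adjusted p = 0.00442) and Tgm1 by 0.71 (adjusted p = 0.0228), both transglutaminases that cross-link proteins of the cornified layer. On the same side from day 1 to day 3, when 3.54% of all genes were called lower, 5 of 15 factors (Dlx3, Ovol1, Tfap2a, Tfap2c, and Vdr), 2 of 12 anchors (Evpl and Pkp3), and 2 of 8 hardening genes (Tgm1 and Tgm3) fell.

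These list counts moved with the epithelial markers, and several of them changed when a single mouse was left out. In both comparisons 5 of 8 epithelial markers also fell, with a median of -0.57 from day 1 to day 3 and of -0.50 from day 1 to day 7. On the epithelial scale, whose genes include the anchors, 0 factors were lower and 2 higher at day 7 than at day 1, 1 anchor was lower and 2 higher, and 1 hardening gene was lower. At day 3 on that scale 1 factor and 2 hardening genes were lower and 1 anchor was higher. Of all 14709 genes on it, 5310 were called higher and 102 lower at day 3, and 5635 and 168 at day 7. From day 1 to day 7, 1 factor fell without mouse 1 or 3 of day 1, and the count ran from 1 to 7 over the 9 mice left out, with 1 to 3 anchors and 1 to 2 hardening genes. From day 1 to day 3 it ran from 1 to 6 factors, 1 to 2 anchors, and 1 to 2 hardening genes. With all 18 samples in one fit, 2 factors fell in each comparison. Without the libraries rich in oral keratins, which leaves a single denervated library at day 1, 6 factors, 2 anchors, and 0 hardening genes fell by day 7, and 4, 1, and 1 by day 3. The part of epithelial content in these falls was not tested.

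On the sham side 0 genes of the 3 lists passed in any comparison of days, where 0.0818%, 0.00682%, and 0.0136% of all genes were called. The list medians from day 1 to day 7 were -0.37 in sham and -0.47 in denervated libraries for the factors, -0.39 and -0.38 for the anchors, and 0.11 and -0.36 for the hardening genes. The interaction tests called 0 genes of the 3 lists, so that no difference between the sides in these changes was shown.

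The members fell into sets of like profiles over the 18 libraries. The points of these correlations share library, day, and side, and the values are descriptions. Cortex keratins formed one such set: Krt34 was most like Krt86 (Pearson r = 0.98 on log2(TPM + 0.5)), Krt33a most like Krt33b (r = 0.97), and Krt31 most like Krt87 (r = 0.99). Krt87 lies outside the hair shaft numbers and followed the cortex, at 178, 355, and 69.8 TPM in sham and 677, 102, and 130.1 TPM in denervated libraries at day 1. Day 3 gave 427, 734, and 191 TPM against 202, 160.3, and 164 TPM, and day 7 64.7, 106, and 156 TPM against 161, 52.5, and 148 TPM. These genes also share much sequence. Of the 31-base stretches of their transcripts, the unit on which the reads were assigned, 49.97% in Krt86, 44.6% in Krt81, 41.99% in Krt34, and 38.9% in Krt31 occur in another keratin, and the split of reads among them is uncertain. Such shares were over 10% in 12 of 49 members, Krt83 (37.3%), Krt33b (36.4%), Krt14 (28.2%), Krt25 (15.7%), Krt27 (17.8%), and Krt5 (11.6%) among them.

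Krt35, a hair keratin that begins low in the follicle, did not follow the cortex set but the inner root sheath genes Krt28 (r = 0.94) and Krt73 (r = 0.92), with little shared sequence (5.47% of its stretches). Among the factors it was most like Msx2 (r = 0.95), Hoxc13 (r = 0.93), and Lef1 (r = 0.92), whose r with Krt34 was 0.28, 0.17, and 0.05. With Krt83, the cortex gene of highest mean level, it was 0.55, 0.48, and 0.37. Krt71 and Krt25 were most like each other (r = 0.98), with Krt27 next (r = 0.94). Among the list genes Krt71 was most like Tchh, the trichohyalin of the inner root sheath (r = 0.97), and Crym (r = 0.88). Krt26 was most like Krt72 (r = 0.92), Krt1 like Krt10 (r = 0.95), and Krt75 of the companion layer like Krt28 (r = 0.86). The inner root sheath group thus held separate sets, with Krt28 and Krt73 apart from Krt71, Krt25, and Krt27.

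**Figure D4:**
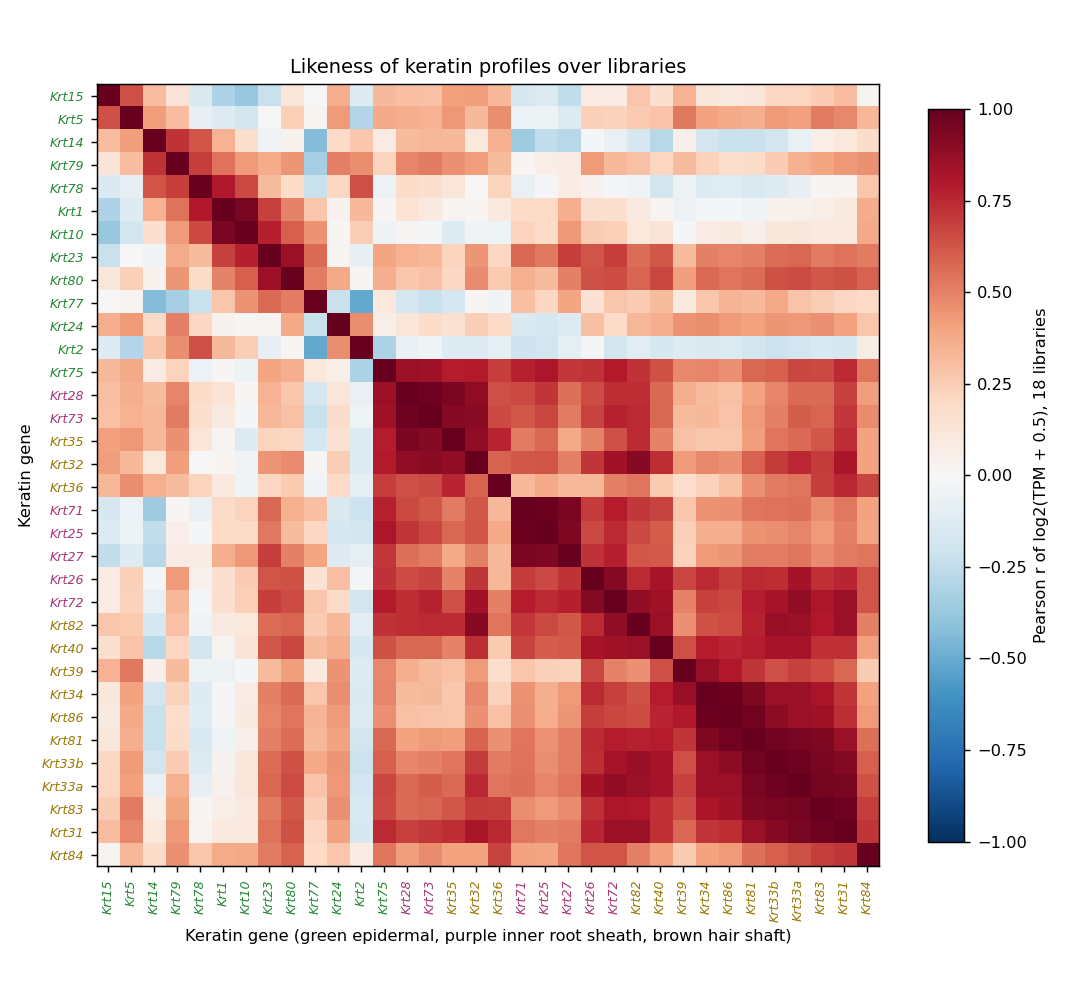
Pearson r of log2(TPM + 0.5) over 18 libraries for each pair of 34 epidermal (green names), inner root sheath (purple), and hair shaft (brown) members. The cortex genes from Krt34 to Krt31 form a block at the lower right, Krt71, Krt25, and Krt27 another, and Krt28, Krt73, Krt35, and Krt32 one more.

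Ratios between members of different sets were then set side by side. The ratio of Krt34 to Krt35 was 0.641, 0.437, and 0.592 in sham and 1.92, 1.03, and 0.72 in denervated libraries at day 1. Day 3 gave 3.64, 3.05, and 1.94 in sham and 5.07, 4.46, and 1.21 in denervated libraries, and day 7 gave 3.57, 1.73, and 0.889 and 0.552, 1.69, and 4.59. All 3 sham ratios of day 3 lie above all 3 of day 1, as do those of day 7, while denervated ratios of days 1 and 3 and of days 1 and 7 overlap. The ratio of Krt71 to Krt73 was 2.64, 3.59, and 5.33 in sham libraries at day 1, 7.88, 9.11, and 5.58 at day 3, and 10.96, 4.62, and 8.91 at day 7, where days 1 and 3 do not overlap and days 1 and 7 do. Denervated libraries gave 4.28, 2.63, and 2.899 at day 1, 7.22, 4.28, and 8.18 at day 3, and 10.4, 7.03, and 11.2 at day 7, where the highest value of day 1 and the lowest of day 3 are both 4.28 when rounded, and days 1 and 7 do not overlap. The sides overlapped within each day for Krt71 to Krt73. For Krt34 to Krt35 they overlapped at days 3 and 7, and at day 1 all denervated ratios lie above all sham ones. The ratio of Krt10 to Krt14 at day 7 was 0.749, 0.404, and 0.651 in sham and 1.28, 0.713, and 1.88 in denervated libraries, higher on the denervated side of each mouse and with overlap of the groups. No test was made of these ratios, which were chosen after the sets were seen.

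Oral keratins stood at high levels in some biopsies and near 0 in the rest. Krt13 and Krt4 are the keratin pair of the lining of mouth and oesophagus. In sham libraries Krt13 was at 0.263, 9.15, and 112 TPM on day 1, 2.32, 0.504, and 2201 TPM on day 3, and 1.28, 937, and 1.83 TPM on day 7. In denervated libraries the values were 0.267, 1064, and 2159 TPM, 3.16, 2.83, and 0.761 TPM, and 0.467, 0.165, and 2.22 TPM. In 5 of 18 libraries Krt13 was at 112 to 2201 TPM, and in the other 13 it was at 0.165 to 9.15 TPM. Krt4 was at 0.432, 4.002, and 18.9 TPM, 1.56, 1.01, and 1488 TPM, and 1.73, 605, and 2.06 TPM in sham and 0.423, 376, and 1317 TPM, 1.63, 0.75, and 0.936 TPM, and 0.658, 0.625, and 1.88 TPM in denervated libraries of these days, at 18.9 or more in the same 5 and at 0.423 to 4.002 TPM in the rest. Krt76, of palate and gum, was at 0.605 to 109 TPM in the 5 and at most 0.768 TPM elsewhere. The 5 libraries were the denervated sides of mice 2 and 3 and the sham side of mouse 3 at day 1, the sham side of mouse 3 at day 3, and the sham side of mouse 2 at day 7. They thus fell on both sides, and in 3 mice on a single side. Among simple, oral, and other keratins, Krt4 had the most positive difference at day 1, 4.15 (SE 2.77) on the log2 scale, and the most negative at day 3, -3.42 (SE 2.56). At day 7 the most negative was Krt13 at -3.71 (SE 2.31), and the adjusted p were 0.999, 0.612, and 0.595. The opposite ends were Krt42 at -0.38 at day 1 and Krt18 at 1.18 and 0.54 at days 3 and 7. Krt13, Krt4, and their group do not enter the counts and medians of the hair and epidermal groups above. Those of them that were tested are part of the counts over all members tested.

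**Figure D5:**
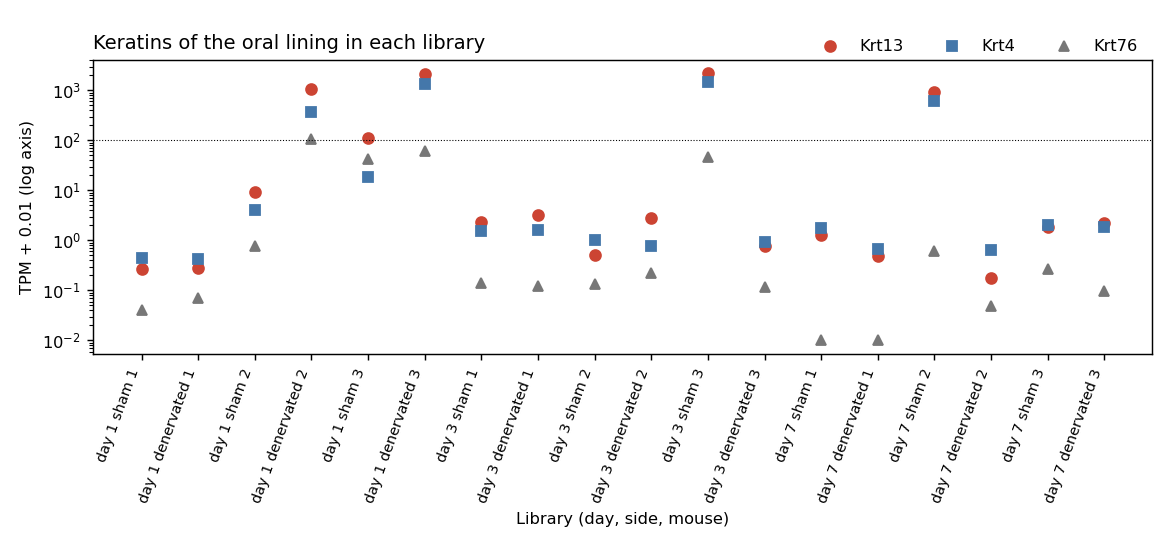
TPM of Krt13 (red circles), Krt4 (blue squares), and Krt76 (grey triangles) in each of 18 libraries on a log axis, with 0.01 added and a dotted line at 100 TPM. Krt13 is at 112 to 2201 TPM in 5 libraries and at 0.165 to 9.15 TPM in the other 13.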

How the data were processed

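RNA was sequenced from 18 libraries, the denervated and the sham side of 9 mice. Per the labels and the study's methods, libraries were made with an Illumina TruSeq kit, demultiplexed with bcl2fastq 2.17.1.14, and assigned to Ensembl GRCm38 transcripts with kallisto 0.43.1. The deposited values are an expression signal, TPM per transcript, which the authors normalized between samples, and their sums ran from 833186 to 1143839 per library. They were analysed as normalized values and not as counts. Transcripts were summed to genes of GENCODE M21, and 98.5% of 113194 transcripts matched. Depth was estimated from low values of long transcripts, of which 71.9% to 85.5% lie within 0.1 of a whole number of reads in a library, beside 20% for evenly spread values.

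Differences were tested with limma 3.58.1 (R 4.3.3) with a mean-variance trend on log2(TPM + 0.5), so that changes of low genes are understated. A gene entered a fit if 47% or more of its samples reached 1 TPM, and p-values were adjusted by Benjamini-Hochberg over all genes tested, with a threshold of 0.05. Each day was fitted with its 6 libraries, each side with its 9, and interactions with all 18. SE is the standard error of the log2 difference. Replicate numbers mark the same animal, and residuals of its sides correlated at 0.16 to 0.57, so the mouse was also used as a block. The members, gene lists, and comparisons were chosen with earlier results of these data known. Values per library are given for the 3 members of each group with the highest mean TPM and for members that passed a test, and the most positive and negative difference of each group is named at each day. List genes are named where they passed or, where none did, at the ends. Other members given with values, such as Krt1, Krt23, Krt84, and Krt35, were picked after their values were seen. Alternatives were the pseudocount, the filter, the scaling, the trend, the transcript with the highest mean, the samples in the fit, the block, leaving out each mouse, and, added after the data were seen, leaving out the 5 libraries with Krt13 of at least 100 TPM. Epithelial scaling divides by the geometric mean of 8 epithelial markers and 12 keratin anchor genes. The fits were tested on simulated data. Some items are not reported here.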

Additional observations from a re-analysis of the deposited data

Results flagged for a closer look

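The values below were singled out because all mice of one day had the denervated side above sham and all mice of another day had it below. Each difference between days was tested as an interaction in limma over all 18 libraries, and 0 of the 10 passed. Krt84 had a difference of 3.33 on the log2 scale from day 3 to day 7 (adjusted p = 0.632). Among epidermal genes, the same difference was 1.56 for Krt1 (adjusted p = 0.640), 1.28 for Krt10 (adjusted p = 0.640), 1.36 for Krt23 (adjusted p = 0.652), 0.93 for Krt80 (adjusted p = 0.652), and 1.265 for Krt78 (adjusted p = 0.717). Krt26 of the inner root sheath cuticle had -1.57 from day 1 to day 3 (adjusted p = 0.476) and 1.13 from day 3 to day 7 (adjusted p = 0.781). The day 1 to day 3 difference was -1.91 for Krt34 (adjusted p = 0.561) and -1.22 for Krt78 (adjusted p = 0.552). The day 3 libraries are shared by these comparisons.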

How the results depend on the processing

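Among values for single genes under the alternatives, 547 kept their direction and their side of the threshold, 45 lost a call, 2 gained one, and 13 turned. Denervated against sham, 1 member was called at day 3 on the epithelial scale and with all 18 samples in one fit (Krt18 in both). At day 7, 1 was called with the mouse as a replicate block (Krt23). Of all genes, 1342 were called at day 3 on the epithelial scale, 313 in the one fit, and 328 at day 7 with the block. Over all days 0 members were called with a minimum of 5 TPM, on the epithelial scale, with the replicate block, and without the libraries rich in oral keratins. The block changed no other call of a member. In sham from day 1 to day 3, 0 were called with a minimum above 0 TPM, an equal sum, no trend, all 18 samples in one fit, or without the oral libraries, and 2 with a minimum of 5 TPM. In sham from day 1 to day 7, 2 were called on the epithelial scale (Krt34 and Krt86, higher). On that scale 1994 of 14640 genes were called higher in this comparison. On the denervated side from day 1 to day 3, 1 was called with a pseudocount of 0.1 or on the epithelial scale. With a minimum of 5 TPM, median-of-ratios factors, no trend, or all 18 samples 2 were called, and with an equal sum 3. These calls differ in direction. The call on the epithelial scale was higher, those with an equal sum or median-of-ratios factors were lower, and all 18 samples gave 1 of each. Of all genes, 5412 were called on the epithelial scale, 1175 with an equal sum, 1673 with median-of-ratios factors, and 1522 with all 18 samples. The left-right r of Krt5 was 0.87 with an equal sum (adjusted exact permutation p = 0.000967), and the cause was not tested.

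Some directions turned between the sides. Without the oral libraries Krt2 was at -0.87 at day 1 and 0.039 at day 3, Krt36 at 0.40, Krt42 at 0.031, and Krt77 at 0.95 at day 1. With an equal sum Krt24 was at -0.048 at day 3 and Krt36 at 0.0017 at day 1, and Krt42 was at 0.37 with the top transcript. Leaving out each mouse gave 0 to 3 members called from day 1 to day 3 and 0 to 5 from day 1 to day 7 on the denervated side, 0 to 2 from day 1 to day 3 in sham, 0 to 1 over all days, and 0 elsewhere. Krt24 ran from -0.20 to 0.26 at day 3, Krt28 from -1.01 to 0.48 at day 7, and Krt36 from -0.39 to 0.73 and Krt77 from -2.32 to 0.026 at day 1. The r of Krt71 ran from -0.49 to 0.13 and that of Krt5 from 0.56 to 0.77.

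With 3 mice a day and a within-group SD of 0.87 in hair keratins, differences of this size are estimated with wide errors. Krt9 and Krt88 never reached 1 TPM, and Krt12 and Krt20 were too low to be tested in any main comparison. Krt76 was too low in most of them, and Krt4 in the comparisons of days on the denervated side.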

Other observations

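Outside the keratins, the genes most like Krt13 over the 18 libraries were looked up after its values were seen. Sprr3, a cornified envelope protein of oral and oesophageal lining, had r = 0.97 with Krt13, and Pax9, a transcription factor of oral epithelium, had r = 0.93. These are descriptions over libraries that share day and side.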
